A study of Homo sapiens with 24 samples.

Results

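The RAS, RAF, MEK and ERK genes code for the relay that carries growth factor signals from the cell membrane to the nucleus. The genes described here are those of 7 names whose probe sets on the array were annotated to that gene alone. Of these, 5 were measured, out of 11963 genes in all: HRAS, a membrane-bound GTPase; ARAF, a RAF kinase; MAP2K1 and MAP2K2, the kinases MEK1 and MEK2; and MAPK3, the kinase ERK1. The other 2 names are not analysed here. For a gene with several such probe sets, the one with the highest mean over the 24 arrays was taken. Of the 5, only MAP2K2 had several, namely 3, of which 202424_at was taken. The others had 1 each, so no second probe set could be set beside their results. These were 212983_at for HRAS, 201895_at for ARAF, 202670_at for MAP2K1 and 212046_x_at for MAPK3. The suffix x marks a probe set that may also bind other transcripts.

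The cells were LNCaP, an established human prostate cancer line, which the labels call early stage. They were nucleofected with 2.5 µg of plasmid coding for miR-130a, miR-203 or miR-205, or with a scramble control. From each transfection, total RNA and RNA bound to AGO2, the Argonaute protein that holds a microRNA on its target, were measured. The AGO2-bound RNA was taken by co-immunoprecipitation with an antibody to AGO2. Each of the 8 groups had 3 arrays labelled as biological replicates. The labels do not say that these were separate cultures, so p-values measure only the spread between the arrays. All groups share the line and the nucleofection, and the microRNAs came from plasmids.

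A microRNA loaded into AGO2 pairs with a messenger RNA mainly through its seed, the bases near its 5′ end, and the bound transcript is often destabilised or translated less. A direct target is therefore sought among transcripts that gain in AGO2-bound RNA, and a fall of the same transcript in total RNA is the second readout. In the cascade, an exchange factor loads RAS with GTP, RAS recruits RAF to the membrane, RAF phosphorylates MEK, and MEK phosphorylates ERK, whose substrates include kinases and ETS-family transcription factors. In prostate epithelium the cascade acts downstream of several growth factor receptors.

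The mature microRNAs were looked up by name in RefSeq tables of build GRCh38.p14, which matched miR-205 and miR-203. They are shown because the comparisons turn on which microRNA was added; both lie on the plus strand, and capitals mark the seed, bases 2 to 8.
hsa-miR-205-5p, chr1:209432166-209432187: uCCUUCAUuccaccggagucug
hsa-miR-203a-3p, chr14:104117469-104117490: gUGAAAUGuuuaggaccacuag
The seeds differ, and a perfect match to them in a transcript would read AUGAAGG for miR-205 and CAUUUCA for miR-203. Transcript sequences were not used here, so no target site was looked for in any of the 5 genes. miR-130a was the third microRNA.

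Values are the deposited log2 levels per probe set, between 2.34 and 14.49 over the arrays, with no depth per sample; the number of arrays limits the precision. The lowest value took 3 levels, one on the 6 arrays of miR-130a, one on the 6 of miR-203 and one on the 12 of miR-205 and scramble, so setting miR-130a or miR-203 against scramble crosses what appear to be separate normalization runs, whose part in those results was not tested. Setting miR-205 against scramble, and of AGO2-bound with total RNA after one transfection, stays within one run. In total RNA the prostate luminal markers KLK3, KLK2, TMPRSS2, KRT8 and KRT18 lay between 6.79 and 12.3 and FOLH1 between 3.23 and 4.75, while the basal marker KRT5 and the leukocyte marker PTPRC lay within 0.05 of the lowest value on all 12 arrays and KRT14 on 11. The fibroblast markers COL1A1 (3.06 to 4.12) and COL3A1 (2.35 to 2.93) were low. The 2 kinds of RNA also differed in quality measures: the 18S ribosomal RNA probe sets read 7.35 to 9.05 on AGO2 arrays and 2.83 to 4.33 on total RNA arrays, and the ACTB 3′ probe set exceeded the 5′ one by 2.22 to 3.94 against 2.00 to 2.44. The mean of the spike-in control probe sets was 6.57 to 8.35 on AGO2 arrays and 6.02 to 6.38 on total RNA arrays. In every AGO2 group it rose with the replicate number. The part of these measures in any difference between AGO2-bound and total RNA, or in the replicate pairing, was not tested.

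All 5 genes passed the filter on low values, which left 6782 genes for testing, and all 5 lay more than 0.5 above the lowest value on all 24 arrays. HRAS had the widest range, 3.56 log2 units between its lowest and highest array, followed by MAP2K2 with 2.84, ARAF with 1.35, MAP2K1 with 1.16 and MAPK3 with 0.56. Levels are compared between groups of 1 gene only, since probe sets differ in brightness. In a bulk sample, fewer cells carrying a transcript and less transcript per cell cannot be told apart.

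**Figure D1:**
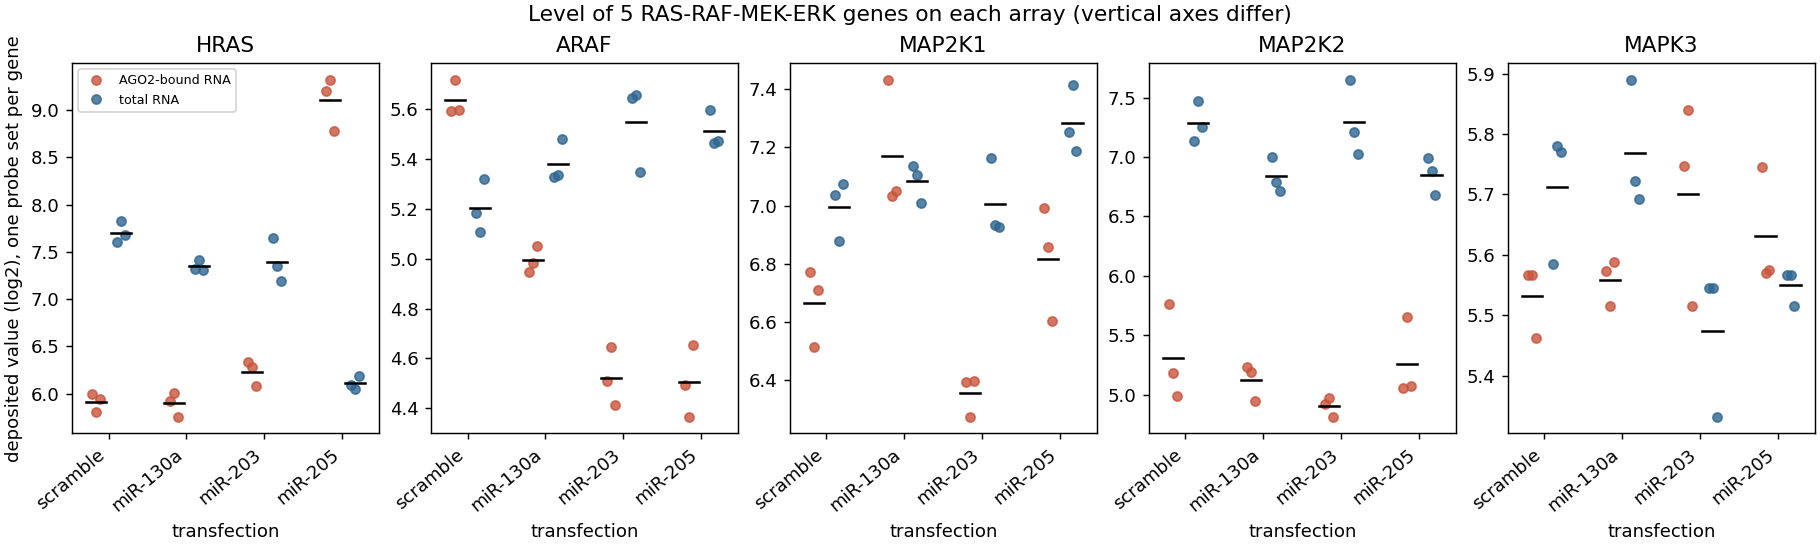
Log2 level of HRAS, ARAF, MAP2K1, MAP2K2 and MAPK3 on each of the 24 arrays, by transfection, with AGO2-bound and total RNA as separate points and a bar at the mean of the 3 arrays; the vertical axes differ between genes. HRAS in AGO2-bound RNA after miR-205 lay at 8.78 to 9.32, above every other HRAS value, while MAPK3 stayed between 5.33 and 5.89 throughout.

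HRAS gained in AGO2-bound RNA and fell in total RNA after miR-205. In AGO2-bound RNA its log2 level was 5.997, 5.80 and 5.94 on the scramble arrays and 9.20, 9.32 and 8.78 on the miR-205 arrays. In total RNA it was 7.61, 7.83 and 7.68 on the scramble arrays and 6.10, 6.04 and 6.18 on the miR-205 arrays. The 2 groups did not overlap in either kind of RNA, and they lay in opposite order.

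The gain in AGO2-bound RNA was 3.19 ± 0.15 on the log2 scale (difference ± standard error, n = 3 arrays per group), or 9.12-fold, with a limma adjusted p of 2e-09; this was the 41st highest of the 6782 differences. The fall in total RNA was -1.59 ± 0.11, or 3.02-fold lower (limma adjusted p = 2.1e-06), the 21st lowest. The AGO2 change exceeded the total RNA change by 4.78 ± 0.19 (limma adjusted p = 1.5e-15), the 8th highest of all genes tested. Over the alternatives in processing the gain ranged from 3.08 to 3.35 and the fall from -1.64 to -1.53, and both stayed past the threshold in each one.

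The changes of HRAS after the other microRNAs were smaller. With miR-130a its AGO2-bound level was 5.92, 6.01 and 5.76, on both sides of the scramble arrays, a difference of -0.02 ± 0.15 (limma adjusted p = 0.94). Its total RNA level was 7.32, 7.41 and 7.31, below all scramble arrays, by -0.35 ± 0.11 (limma adjusted p = 0.030). That call ended when any of 5 of the 6 arrays was left out, namely scramble replicate 2 or 3 or any miR-130a array, with limma adjusted p from 0.053 to 0.10, and the difference between the 2 kinds of RNA, 0.34 ± 0.19, did not pass the test (limma adjusted p = 0.19).

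With miR-203 the AGO2-bound level of HRAS was 6.34, 6.28 and 6.08, above all scramble arrays, by 0.32 ± 0.15 (limma adjusted p = 0.10, and 0.047 with the replicate number as a block). The total RNA level was 7.65, 7.35 and 7.19, which overlapped the scramble arrays, and was lower by -0.31 ± 0.11 (limma adjusted p = 0.042). Leaving out total RNA scramble replicate 2 or 3, or miR-203 replicate 2 or 3, ended this call (limma adjusted p from 0.075 to 0.16). The AGO2 change exceeded the total RNA change by 0.63 ± 0.19 (limma adjusted p = 0.0094).

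Compared directly, a comparison chosen after the data were seen, HRAS in AGO2-bound RNA after miR-205 exceeded that after miR-130a by 3.21 ± 0.15 (limma adjusted p = 1.7e-09) and that after miR-203 by 2.87 ± 0.15 (limma adjusted p = 4.4e-09). In total RNA it was lower than after miR-130a by -1.24 ± 0.11 and than after miR-203 by -1.29 ± 0.11 (limma adjusted p = 4.1e-06 and 2.9e-06). These pairs cross the normalization runs.

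The order of the 8 groups turned with the transfection. AGO2-bound RNA after miR-205 stood first with a mean of 9.10, and the next group, total RNA after scramble at 7.70, did not reach its range. Total RNA after scramble, miR-203 (7.39) and miR-130a (7.35) overlapped as neighbours. AGO2-bound RNA after miR-203 (6.23) and total RNA after miR-205 (6.11) also overlapped, and AGO2-bound RNA after scramble (5.91) and miR-130a (5.90) came last with overlapping arrays. In AGO2-bound relative to total RNA, HRAS was thus lower by -1.79 ± 0.14 on the scramble arrays, -1.45 ± 0.14 with miR-130a and -1.16 ± 0.14 with miR-203, and higher with miR-205 by 2.99 ± 0.14, with limma adjusted p of 4.9e-08 or smaller in each.

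ARAF moved the other way. The 3 arrays of AGO2-bound RNA read 5.59, 5.72 and 5.60 with scramble, 4.95, 4.98 and 5.05 with miR-130a, 4.51, 4.65 and 4.41 with miR-203, and 4.49, 4.37 and 4.65 with miR-205. Every microRNA array lay below every scramble array. The differences were -0.64 ± 0.13, -1.11 ± 0.13 and -1.13 ± 0.13, with limma adjusted p of 0.0011, 7.8e-06 and 6.6e-06, and each stayed past the threshold in every alternative tried. All 3 were taken from the same scramble arrays, so they are not independent results.

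The AGO2-bound falls of ARAF after miR-203 and miR-205 were deeper than after miR-130a, by -0.47 ± 0.13 (limma adjusted p = 0.0060) and -0.49 ± 0.13 (limma adjusted p = 0.0054) in the direct comparisons, which were chosen after the data were seen and cross the runs. Between miR-205 and miR-203 the difference was -0.02 ± 0.13 (limma adjusted p = 0.92). The ACTB 3′ minus 5′ difference averaged 3.40 on the AGO2 scramble arrays, 2.55 and 2.68 after miR-130a and miR-203, and 3.45 after miR-205; its part in the ARAF falls was not tested.

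In total RNA ARAF read 5.18, 5.11 and 5.32 with scramble, 5.33, 5.34 and 5.48 with miR-130a, 5.64, 5.66 and 5.35 with miR-203, and 5.60, 5.47 and 5.47 with miR-205. All microRNA arrays lay above the scramble arrays, by small amounts. The rises were 0.35 ± 0.10 after miR-203 (limma adjusted p = 0.016) and 0.31 ± 0.10 after miR-205 (limma adjusted p = 0.043), and the difference after miR-130a was 0.18 ± 0.10 (limma adjusted p = 0.20).

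Both rises of ARAF in total RNA were close to the threshold. The miR-203 call ended without total RNA miR-203 replicate 1 or 2 or scramble replicate 2 (limma adjusted p from 0.055 to 0.064). The miR-205 call ended without any miR-205 array or scramble replicate 1 or 2 (limma adjusted p from 0.065 to 0.14). The gap between the changes in the 2 kinds of RNA did not rest on them: it was -0.82 ± 0.16, -1.46 ± 0.16 and -1.44 ± 0.16 for miR-130a, miR-203 and miR-205, with limma adjusted p of 0.00027, 6.4e-08 and 8.8e-08, and passed in every alternative.

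After scramble ARAF was higher in AGO2-bound than in total RNA, by 0.43 ± 0.11 (limma adjusted p = 0.0015). After miR-130a, miR-203 and miR-205 it was lower there, by -0.39 ± 0.11, -1.03 ± 0.11 and -1.01 ± 0.11 (limma adjusted p = 0.0039, 1.9e-08 and 2.4e-08). Among its 8 groups the top 3 were AGO2-bound RNA after scramble (5.64) and total RNA after miR-203 (5.55) and miR-205 (5.51), each overlapping the next, and the lowest were AGO2-bound RNA after miR-203 (4.52) and miR-205 (4.50), which also overlapped.

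**Figure D2:**
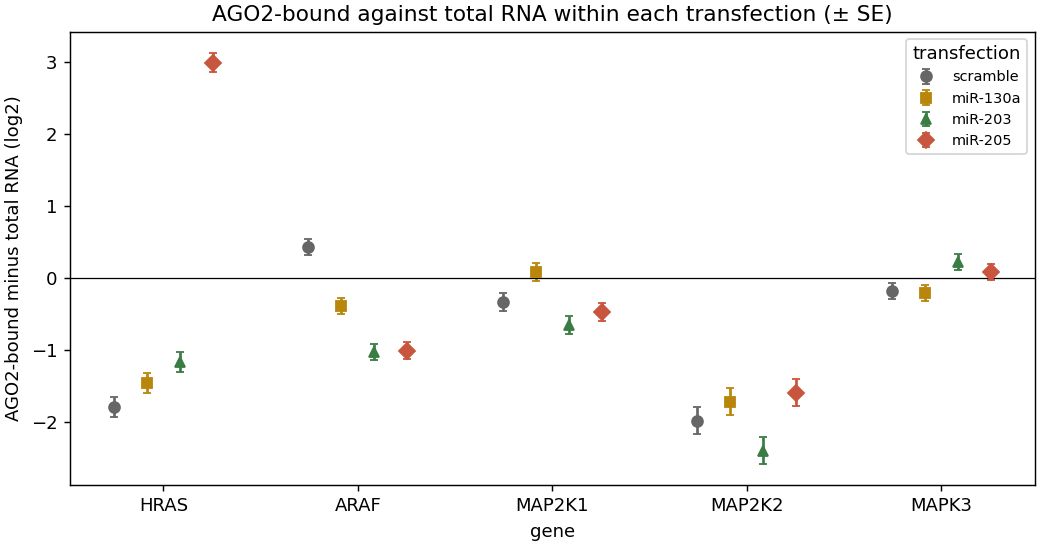
Log2 difference between AGO2-bound and total RNA for each of the 5 genes after each transfection, with standard errors from limma. HRAS turned from -1.79 after scramble to 2.99 after miR-205, ARAF turned from 0.43 to -1.01, and MAP2K2 stayed below zero throughout.

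MAP2K1, which codes for MEK1, gained in AGO2-bound RNA after miR-130a. Its arrays read 6.77, 6.51 and 6.71 after scramble and 7.43, 7.03 and 7.05 after miR-130a, with no overlap. The difference was 0.51 ± 0.15 (limma adjusted p = 0.017), and it fell below the threshold without AGO2 miR-130a replicate 1, the highest array (0.38, limma adjusted p = 0.080), or without AGO2 scramble replicate 2, the lowest (0.43, limma adjusted p = 0.076). The total RNA level after miR-130a, 7.14, 7.10 and 7.01, overlapped that after scramble, 7.03, 6.88 and 7.08, with a difference of 0.09 ± 0.10 (limma adjusted p = 0.53). The test of the AGO2 change minus the total RNA change did not pass for MAP2K1 with miR-130a. With single arrays left out that difference was 0.29 to 0.49 (limma adjusted p from 0.057 to 0.23). It passed with centred arrays or a replicate block (limma adjusted p = 0.047 and 0.043).

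After miR-203 the AGO2-bound level of MAP2K1 was 6.39, 6.27 and 6.40, below all scramble arrays, by -0.31 ± 0.15 (limma adjusted p = 0.10, and 0.045 with the replicate number as a block). After miR-205 it was 6.99, 6.86 and 6.60, overlapping scramble (0.15 ± 0.15, limma adjusted p = 0.46). Total RNA after miR-203 read 7.16, 6.93 and 6.93 (0.01 ± 0.10, limma adjusted p = 0.94). Total RNA after miR-205 read 7.25, 7.42 and 7.19, above all scramble arrays, by 0.29 ± 0.10 (limma adjusted p = 0.047), and this call ended whichever of the 6 arrays was left out (limma adjusted p from 0.051 to 0.15).

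In AGO2-bound against total RNA, MAP2K1 was lower after miR-203 by -0.65 ± 0.13 (limma adjusted p = 7.9e-05), after miR-205 by -0.47 ± 0.13 (limma adjusted p = 0.0022) and after scramble by -0.33 ± 0.13 (limma adjusted p = 0.024). The last ended without AGO2 scramble replicate 2 or total RNA scramble replicate 1 or 3 (limma adjusted p from 0.063 to 0.12). After miR-130a the difference was 0.09 ± 0.13 (limma adjusted p = 0.55). The 7 highest groups of MAP2K1 each overlapped the next, and AGO2-bound RNA after miR-203 (6.35) stood apart at the bottom.

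MAP2K2, which codes for MEK2, was the gene of the 5 that lay below its total RNA level in AGO2-bound RNA after all 4 transfections and on every array. Its AGO2-bound arrays read 5.76, 5.18 and 4.98 with scramble, 5.23, 5.19 and 4.95 with miR-130a, 4.92, 4.97 and 4.81 with miR-203, and 5.05, 5.66 and 5.07 with miR-205. Its total RNA arrays read 7.13, 7.47 and 7.26, then 7.003, 6.79 and 6.71, then 7.65, 7.21 and 7.03, then 6.99, 6.89 and 6.68, in the same order of transfections. The gap was -1.98 ± 0.19 with scramble, -1.71 ± 0.19 with miR-130a, -2.40 ± 0.19 with miR-203 and -1.59 ± 0.19 with miR-205, with limma adjusted p of 4.7e-08 or smaller.

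None of the AGO2-bound changes of MAP2K2 against scramble passed the test (-0.19 ± 0.21, -0.41 ± 0.21 and -0.05 ± 0.21 for miR-130a, miR-203 and miR-205, limma adjusted p = 0.51, 0.11 and 0.88), though without AGO2 scramble replicate 3 the one for miR-203 did (-0.57, limma adjusted p = 0.044). In total RNA it fell after miR-130a by -0.45 ± 0.15 (limma adjusted p = 0.043), with no overlap between the groups. The call ended without total RNA miR-130a replicate 2 or 3 or scramble replicate 2 or 3 (limma adjusted p from 0.084 to 0.14). After miR-205 the difference was of like size, -0.43 ± 0.15 (limma adjusted p = 0.059), and after miR-203 it was 0.01 ± 0.15 (limma adjusted p = 0.97).

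MAP2K2 had 3 probe sets, and they disagreed in part. The one taken here had a mean of 6.11. Another stayed within 0.05 of the lowest value on all arrays. The remaining one was also lower in AGO2-bound RNA, with means of 3.16 with scramble, 3.31 with miR-130a, 3.36 with miR-203, and 3.11 with miR-205 against 4.35, 4.25, 4.74 and 4.21 in total RNA. By that probe set, an alternative chosen after the data were seen, the total RNA difference after miR-130a was -0.10 (limma adjusted p = 0.75).

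MAPK3, which codes for ERK1, varied least. Its AGO2-bound arrays read 5.57, 5.57 and 5.46 with scramble, 5.57, 5.52 and 5.59 with miR-130a, 5.75, 5.84 and 5.52 with miR-203, and 5.74, 5.57 and 5.58 with miR-205. Its total RNA arrays read 5.58, 5.78 and 5.77, then 5.89, 5.72 and 5.69, then 5.55, 5.55 and 5.33, then 5.57, 5.57 and 5.51, in the same order. All 8 groups overlapped their neighbours in rank. Some values were identical to all digits. AGO2 scramble replicates 1 and 2 and total RNA miR-205 replicates 1 and 2 all read 5.56691, and total RNA miR-203 replicates 1 and 2 both read 5.54537. The first value occurred only on scramble and miR-205 arrays, which also share their lowest value, and the second only on miR-203 arrays. What set these values was not tested. They enter the narrow range and the standard errors of MAPK3, so these may not measure its RNA alone.

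None of the 6 differences of MAPK3 from scramble passed the test. The one with the smallest p was total RNA after miR-203, at -0.24 ± 0.09 (limma adjusted p = 0.058), which passed without total RNA scramble replicate 1 (-0.30, limma adjusted p = 0.030). The AGO2 change after miR-203, 0.17 ± 0.13 (limma adjusted p = 0.28), exceeded the total RNA change by 0.41 ± 0.16 (limma adjusted p = 0.034), a call that ended without AGO2 miR-203 replicate 1 or 2, AGO2 scramble replicate 3, total RNA miR-203 replicate 3 or total RNA scramble replicate 2 or 3 (limma adjusted p from 0.066 to 0.099). In AGO2-bound against total RNA MAPK3 differed by -0.21 ± 0.11, 0.23 ± 0.11, 0.08 ± 0.11 and -0.18 ± 0.11 after miR-130a, miR-203, miR-205 and scramble, with limma adjusted p from 0.07 to 0.52. Without AGO2 miR-203 replicate 3 the difference after miR-203 was 0.32 and passed (limma adjusted p = 0.019). When each array was centred on its median, the differences after miR-130a and scramble became -0.29 and -0.31 and passed (limma adjusted p = 0.023 and 0.015) and the one after miR-205 turned to -0.09.

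Among the 5 genes, 2 were called in AGO2-bound RNA with miR-130a, 1 with miR-203 and 2 with miR-205. Over all genes tested the share called was 38.5%, 51.4% and 44% in the same comparisons. In total RNA 2, 2 and 3 were called, against 29.3%, 39.6% and 23.5% of all genes. For the difference between the 2 changes 1, 3 and 2 were called, against 34.6%, 49.1% and 42.8%. In AGO2-bound against total RNA 3, 4, 4 and 4 were called after miR-130a, miR-203, miR-205 and scramble, against 71.6%, 71.9%, 72.7% and 72.9%. With so few genes, no count was read as differing from its background share.

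Whether an AGO2-bound gain went with a fall in total RNA was read over the 15 pairs of a gene and a microRNA. The 3 comparisons share the scramble arrays. A gain with a fall was called in 1 pair, HRAS with miR-205, and a loss with a rise in 2, ARAF with miR-203 and with miR-205. A gain alone was called in 1 pair, MAP2K1 with miR-130a, and a loss alone in 1, ARAF with miR-130a. Alone means that the other kind of RNA was not called, which does not show that the 2 changes differed. For MAP2K1 with miR-130a the test of that difference did not pass. A fall alone was called in 3 pairs (HRAS with miR-130a and miR-203, MAP2K2 with miR-130a) and a rise alone in 1 (MAP2K1 with miR-205), and 6 pairs had neither. With the replicate number as a block in AGO2-bound RNA, where the numbers pair miR-203 with scramble, HRAS with miR-203 was also a gain (limma adjusted p = 0.047) and MAP2K1 with miR-203 also a loss (limma adjusted p = 0.045); with the fall of HRAS in total RNA as tested without the block (limma adjusted p = 0.042) the former makes another gain with a fall, and with the block in total RNA too (limma adjusted p = 0.058) it does not.

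Over all genes tested, a gain with a fall was called for 191 genes (2.82%) with miR-130a, 380 (5.6%) with miR-203 and 283 (4.17%) with miR-205. A loss with a rise was called for 206 (3.04%), 406 (5.99%) and 197 (2.9%) in the same order. With miR-130a 12% of all genes showed a gain alone, 13.6% a loss alone and 7.25% a fall alone; with miR-203 8.27% showed a fall alone, and with miR-205 5.79% a rise alone. Neither change was called for 45.1%, 30.7% and 44.4% of genes. The 283 genes of miR-205 were 20.5% of those that gained in AGO2-bound RNA and 31.3% of those that fell in total RNA. Both changes reached 2-fold for 9 genes (0.133%), 41 genes (0.605%) and 27 genes (0.398%) with miR-130a, miR-203 and miR-205, HRAS being among the last. By the difference between its changes HRAS ranked 8th of the 283, and by its fall in total RNA the 7th.

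**Figure D3:**
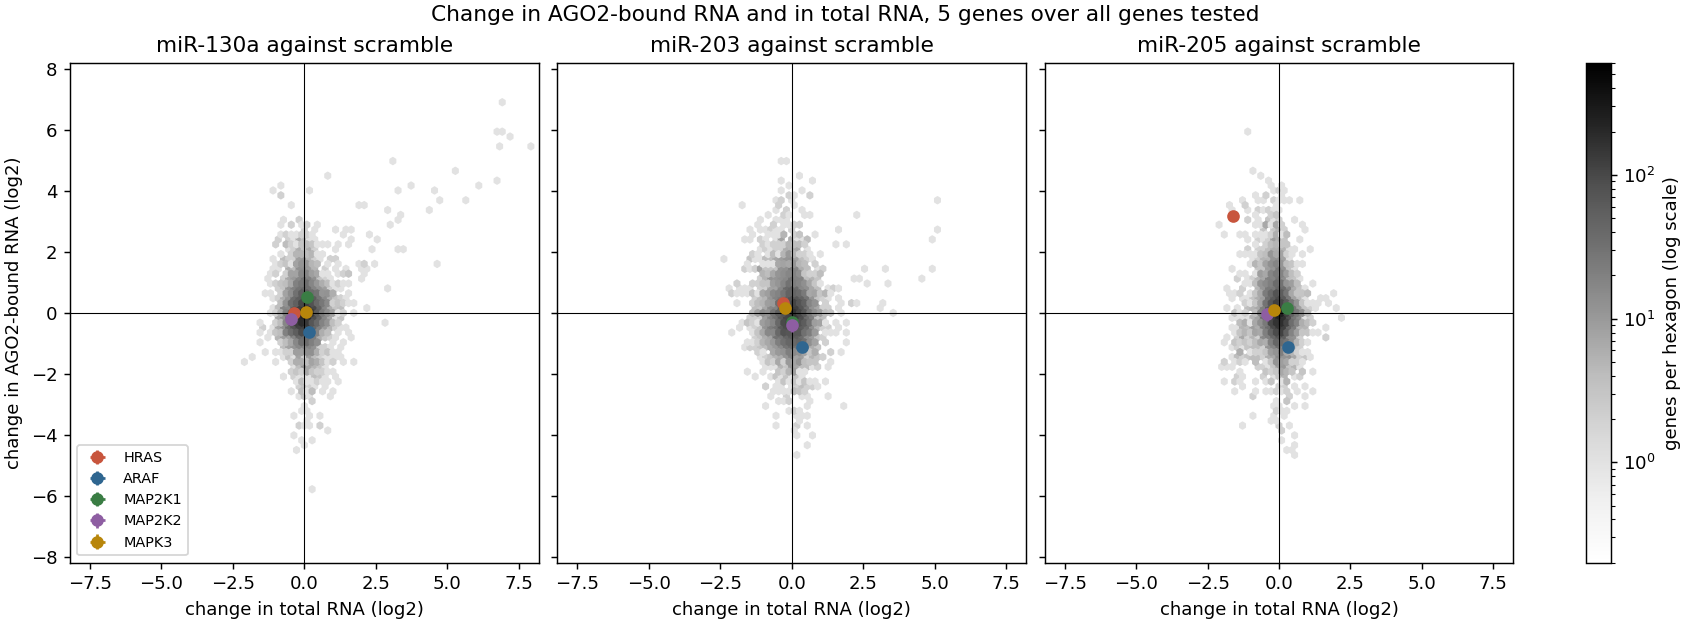
Change in AGO2-bound RNA against change in total RNA (both log2, microRNA against scramble) for the 5 genes, with limma standard errors, over grey hexagons that count all 6782 genes tested on a log scale. HRAS lies at -1.59 and 3.19 in the miR-205 panel, at the upper left edge of all genes, and ARAF lies below zero on the vertical axis in all 3 panels.

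The genes whose level followed that of each member most closely over the 24 arrays were found by Pearson's r among all genes tested, as a description. For HRAS they were ATP2C2 (r = 0.97) and GANAB (r = 0.96). GANAB read 7.39, 7.14 and 7.15 in AGO2-bound RNA after scramble and 9.64, 9.84 and 9.87 after miR-205, and 8.77, 8.69 and 8.93 against 7.08, 7.38 and 7.57 in total RNA. ATP2C2 averaged 3.17 and 5.18 in AGO2-bound RNA and 4.72 and 3.35 in total RNA after scramble and miR-205. Both show the reversed order of HRAS, which follows from their choice by r on the same arrays and is no separate evidence. Their r with HRAS was also high within the 12 AGO2 arrays (0.99 and 0.97) and within the 12 total RNA arrays (0.93 and 0.95).

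For ARAF the closest were CENPB and HNRNPR (both r = 0.93), whose likeness was high within AGO2 arrays (0.96 and 0.97) and lower within total RNA arrays (0.58 and 0.32). For MAP2K2 they were PARVB (0.98) and AP2S1 (0.97), with 0.53 and 0.70 within AGO2 arrays. For MAP2K1 they were RTCB (0.87) and GPAA1 (0.86), with 0.49 and 0.14 within total RNA arrays. For MAPK3 they were ALDH3B2 (0.77) and NCLN (0.70). The arrays share their groups and normalization runs, which enter each r. Between the 5 genes themselves r over 24 arrays lay between -0.35 (HRAS and ARAF) and 0.59 (ARAF and MAP2K2).

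The rest of the pathway was read through 6 lists of 70 names, of which 63 were measured, 46 passed the filter on low values and 17 lay below it. In AGO2-bound RNA 11 of the 46 rose and 11 fell with miR-130a, 10 rose and 19 fell with miR-203, and 10 rose and 17 fell with miR-205. Over all genes tested the shares that rose were 18.6%, 22.7% and 20.4%, and the shares that fell 19.9%, 28.8% and 23.7%. In total RNA 9 rose and 6 fell, 11 rose and 10 fell, and 7 rose and 5 fell in the same order, beside 15.9%, 19.8% and 10.1% of all genes that rose and 13.3%, 19.8% and 13.3% that fell. The medians of the 46 AGO2-bound differences were -0.11, -0.15 and -0.11, beside -0.05, -0.09 and -0.06 over all genes tested. The counts of each list below stand beside the same shares of all genes. With so few genes per list, none of these counts was read as differing from its share. Within each kind of RNA, the microRNAs were compared with the same scramble arrays.

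Among adaptors and exchange factors, which couple receptors to RAS, 7 genes were tested. SOS1, an exchange factor that loads RAS with GTP, rose in AGO2-bound RNA after miR-130a by 1.27 ± 0.19 (limma adjusted p = 0.00014). RALGDS, an exchange factor for the RAL GTPases, rose after miR-203 by 1.84 ± 0.16 while it fell in total RNA by -0.86 ± 0.15 (limma adjusted p = 4.8e-07 and 0.00067). GRB2, the adaptor that brings SOS to receptors, was higher in AGO2-bound RNA with miR-205 by 0.90 ± 0.24 (limma adjusted p = 0.0077). In all, 2, 2 and 2 of the 7 rose and 2, 2 and 1 fell in AGO2-bound RNA after miR-130a, miR-203 and miR-205.

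Of the brakes on the cascade 5 were tested. PEBP1, a protein that binds RAF kinases and holds them back from MEK, rose in AGO2-bound RNA after miR-130a by 1.23 ± 0.13 and fell after miR-203 and miR-205 by -0.85 ± 0.13 and -0.79 ± 0.13 (limma adjusted p = 5.5e-06, 9.8e-05 and 0.00022). SPRY1, a Sprouty inhibitor of receptor signalling, rose after miR-205 in AGO2-bound RNA by 1.99 ± 0.27 and in total RNA by 0.81 ± 0.13 (limma adjusted p = 4.5e-05 and 0.00074). SPRED2, an inhibitor of RAF activation, rose in AGO2-bound RNA after miR-203 by 1.11 ± 0.19 (limma adjusted p = 0.00032). In AGO2-bound RNA 2, 1 and 1 of the 5 rose and 1, 1 and 1 fell.

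Among other kinases and GTPases of the cascade 9 were tested. RRAS2, a RAS-related GTPase, fell in AGO2-bound RNA after miR-130a, miR-203 and miR-205 by -1.43 ± 0.22, -1.57 ± 0.22 and -1.02 ± 0.22 (limma adjusted p = 0.00016, 5.2e-05 and 0.0020), and so did MAPK7, the kinase ERK5, by -1.13 ± 0.14, -0.96 ± 0.14 and -0.95 ± 0.14 (limma adjusted p = 1.8e-05, 5.7e-05 and 6.6e-05). RAP1B, a GTPase related to RAS, rose in AGO2-bound RNA after miR-203 by 1.21 ± 0.12 and fell in total RNA by -0.40 ± 0.09 (limma adjusted p = 2.3e-06 and 0.0045). After miR-205 RAP1B rose by 0.56 ± 0.12 and fell by -0.33 ± 0.09 (limma adjusted p = 0.0017 and 0.022), and that fall lost its call without total RNA miR-205 replicate 1 (-0.24) or scramble replicate 1 (-0.31) or 3 (-0.34), with limma adjusted p of 0.098, 0.058 and 0.051. In AGO2-bound RNA 2, 3 and 1 of the 9 rose and 2, 3 and 5 fell.

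Among scaffolds and helpers 10 were tested. YWHAB, an adaptor that binds phosphorylated RAF kinases, read 11.01, 11.05 and 11.08 in AGO2-bound RNA after scramble and 12.23, 12.24 and 12.44 after miR-205, and 10.57, 10.48 and 10.34 against 9.83, 9.59 and 9.86 in total RNA. It thus shared the direction of HRAS, with a gain of 1.26 ± 0.14 and a fall of -0.71 ± 0.09 (limma adjusted p = 6.9e-06 and 0.00021), and it did the same after miR-130a (1.37 ± 0.14 and -0.51 ± 0.09, limma adjusted p = 4.3e-06 and 0.0018). After miR-203 YWHAB fell in both, by -0.70 ± 0.14 in AGO2-bound RNA and -0.32 ± 0.09 in total RNA (limma adjusted p = 0.00098 and 0.018), and the latter call ended without total RNA miR-203 replicate 1 (-0.28, limma adjusted p = 0.057) or scramble replicate 1 (-0.27, limma adjusted p = 0.059) and with probe sets averaged (-0.07, limma adjusted p = 0.39). LAMTOR2, a subunit of the Ragulator complex that anchors signalling at the lysosome, was higher in AGO2-bound RNA with miR-205 by 3.29 ± 0.22 (limma adjusted p = 4.2e-08), about as much as HRAS, while its total RNA difference was -0.09 ± 0.09 (limma adjusted p = 0.55). LAMTOR3, its partner that binds MEK1, fell in AGO2-bound RNA after miR-203 and miR-205 by -1.46 ± 0.16 and -1.15 ± 0.16 (limma adjusted p = 4.2e-06 and 4e-05). In AGO2-bound RNA 2, 2 and 4 of the 10 rose and 1, 4 and 3 fell.

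Of the enzymes that process the lipid tail of RAS 3 were tested. ICMT, the enzyme that methylates the end of RAS, was lower in AGO2-bound RNA and higher in total RNA after every microRNA. It read 8.07, 8.24 and 7.86 in AGO2-bound RNA with scramble, 7.15, 6.50 and 6.74 with miR-130a, 7.47, 7.24 and 7.09 with miR-203, and 6.83, 6.46 and 6.60 with miR-205, and fell by -1.26 ± 0.18, -0.79 ± 0.18 and -1.43 ± 0.18 (limma adjusted p = 8.6e-05, 0.0025 and 2.2e-05). In total RNA it rose by 1.06 ± 0.10, 0.77 ± 0.10 and 0.59 ± 0.10 (limma adjusted p = 7.4e-06, 6.4e-05 and 0.00076). FNTA, the shared subunit of the prenyl transferases, rose in AGO2-bound RNA after miR-203 by 0.85 ± 0.15 (limma adjusted p = 0.00033). In AGO2-bound RNA 0, 1 and 0 of the 3 rose and 1, 2 and 2 fell.

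Among ERK substrates and output genes 12 were tested. ETS2, an ETS transcription factor, fell in AGO2-bound RNA by -3.43 ± 0.20, -1.69 ± 0.20 and -3.23 ± 0.20 after miR-130a, miR-203 and miR-205 (limma adjusted p = 1.4e-08, 9.7e-06 and 1.8e-08). Its mean level went from 6.03 to 2.60 after miR-130a and 2.80 after miR-205, near the lowest value of the arrays, and to 4.34 after miR-203. ELK4, another ETS factor, averaged 5.23 after scramble, 2.58 and 2.70 after miR-130a and miR-203, also near the lowest value, and 3.34 after miR-205. It fell by -2.65 ± 0.20, -2.53 ± 0.20 and -1.89 ± 0.20 after miR-130a, miR-203 and miR-205 (limma adjusted p = 2.1e-07, 2.4e-07 and 3.8e-06). In total RNA ETS2 averaged 2.40 to 2.98 and ELK4 2.54 to 3.05, so both passed the filter largely through AGO2-bound RNA. There the scramble group, against which they were tested, was the highest. The filter thus favoured genes that fall from scramble, and the p-values of these falls do not allow for that. Differences that end near the lowest value are cut short there. RPS6KA5, a kinase that ERK activates, read 4.87, 4.65 and 4.74 after scramble and 7.83, 7.82 and 8.03 after miR-130a in AGO2-bound RNA, a rise of 3.14 ± 0.14, and fell in total RNA by -0.77 ± 0.16 (limma adjusted p = 1.3e-09 and 0.0035). MKNK2, a kinase of the translation factor eIF4E, fell in total RNA after miR-205 by -1.17 ± 0.10 and rose after miR-130a and miR-203 by 0.83 ± 0.10 and 1.04 ± 0.10 (limma adjusted p = 7.9e-06, 7.3e-05 and 8e-06). In AGO2-bound RNA 3, 1 and 2 of the 12 rose and 4, 7 and 5 fell, with ETS2 and ELK4 among those that fell each time. Of all genes tested 18.6%, 22.7% and 20.4% rose and 19.9%, 28.8% and 23.7% fell.

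**Figure D4:**
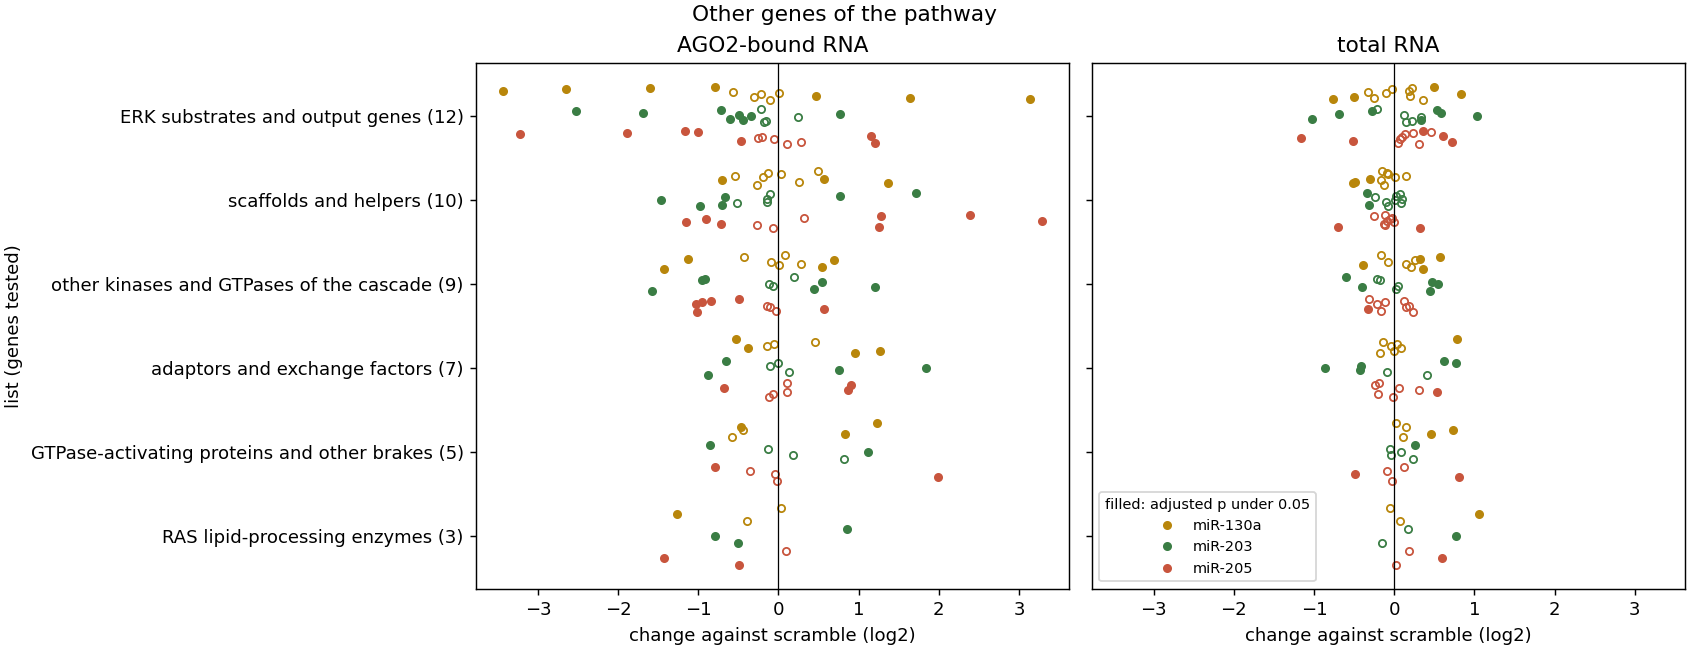
Log2 difference from scramble for the tested genes of the 6 pathway lists in AGO2-bound and in total RNA, one point per gene and microRNA, filled where the limma adjusted p is under 0.05. The points run from -3.43 (ETS2, which ended near the lowest value of the arrays) to 3.29 (LAMTOR2) in AGO2-bound RNA and from -1.17 (MKNK2) to 1.06 (ICMT) in total RNA.

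Of the 46 pathway genes, 3, 5 and 2 showed a gain with a fall for miR-130a, miR-203 and miR-205, beside 2.82%, 5.6% and 4.17% of all genes tested. They were LAMTOR3, YWHAB and RPS6KA5 for miR-130a, SHC1, RALGDS, RAP1B, CDC37 and ETV1 for miR-203, and RAP1B and YWHAB for miR-205. Some of these pairs rest on calls near the threshold: the gain of LAMTOR3 ended without AGO2 miR-130a replicate 2 (0.49) or scramble replicate 3 (0.41), the gain of ETV1 without AGO2 scramble replicate 3 (0.50), and the fall of CDC37 without total RNA miR-203 replicate 2 (-0.33) or 3 (-0.25) or scramble replicate 2 (-0.23), with limma adjusted p from 0.052 to 0.15. With probe sets averaged, the gain of SHC1 was 0.31 (limma adjusted p = 0.064) and the fall of ETV1 was -0.17 (limma adjusted p = 0.10). A loss with a rise, the direction of ARAF, was called for 5, 8 and 2 of the 46, beside 3.04%, 5.99% and 2.9% of all genes tested. For ICMT it was called after all 3 microRNAs. By the difference between the 2 changes YWHAB ranked 124th and RAP1B 269th of the 283 genes with a gain and a fall after miR-205, against 8th for HRAS.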

How the data were processed

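RNA was hybridised to Affymetrix Human Genome U133A 2.0 arrays, 2 µg each, per the labels' protocols. The authors deposited log2 values per probe set; per the submitters' processing notes R 2.9.0, GCRMA and RMA were used, with no order given. Of 22277 probe sets, 19070 carried 1 gene symbol, 1043 several and 2164 none, and 19058 were matched to RefSeq gene records. Genes under the median mean level of all probe sets (2.85) were left out of tests. Linear models with eBayes moderation (limma 3.58.1 under R 4.3.3; Benjamini-Hochberg over 6782 genes, threshold 0.05) compared each microRNA with scramble on the 12 AGO2 or the 12 total RNA arrays; pairs of microRNAs were compared in the same fits, and all 24 arrays entered AGO2-bound against total RNA and the differences of changes. The code was tested on simulated data.

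The members and lists were chosen with earlier results of these data known. Named are the members, the 2 genes most correlated with each, and at most 2 pathway genes per list and direction with the smallest adjusted p, of which a selection is printed. Alternatives covered filters, normalization, probe set choice, empirical Bayes settings, a replicate block, all arrays in one fit and each array left out. Same-numbered arrays deviated together (r over 0.1 in every pair) for AGO2 miR-130a with scramble (0.11 to 0.52) and AGO2 miR-203 with scramble (0.16 to 0.58), and not in the other comparisons with scramble. No arrays were identical.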

Additional observations from a re-analysis of the deposited data

Results flagged for a closer look

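The change in AGO2-bound RNA differed from the change in total RNA, by a test of the difference itself, in 6 of the 15 pairs of a gene and a microRNA. Over all genes tested the share called was 34.6% with miR-130a, 49.1% with miR-203 and 42.8% with miR-205. The count is not read as differing from these shares. Differences of 1 gene with several microRNAs share the same scramble arrays. For HRAS the AGO2 change was the higher one by 4.78 ± 0.19 log2 units with miR-205 and by 0.63 ± 0.19 with miR-203 (limma adjusted p = 1.5e-15 and 0.0094). For ARAF it was the lower one with all 3 microRNAs, by -0.82 ± 0.16 with miR-130a, -1.46 ± 0.16 with miR-203 and -1.44 ± 0.16 with miR-205 (limma adjusted p = 0.00027, 6.4e-08 and 8.8e-08). For MAPK3 it was the higher one with miR-203 by 0.41 ± 0.16 (limma adjusted p = 0.034), although neither change alone passed the test. Some of the MAPK3 values behind this difference were identical between arrays.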

How the results depend on the processing

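Over 1030 values of the 5 genes under the alternatives, 933 kept their direction and side of the threshold, 56 lost and 16 gained a call, and 25 changed sign. For the named pathway genes these were 2401, 126, 0 and 2 of 2529. Those genes were picked among calls, so none could gain one. The other MAP2K2 probe set changed the levels of MAP2K2 only. Averaging probe sets left HRAS, ARAF, MAP2K1 and MAPK3 as they were, with 1 probe set each. Part of the values counted as kept thus had unchanged levels. The calls of HRAS with miR-205 and of ARAF in AGO2-bound RNA were kept in each alternative. The number of the 5 genes called in AGO2-bound RNA after miR-203 became 3 with a replicate block or all 24 arrays in the fit. In total RNA after miR-130a it became 0 with no filter or all 24 arrays, and 1 with probe sets averaged or with the other MAP2K2 probe set. In total RNA after miR-203 it became 1 with no filter, a replicate block or all 24 arrays, and after miR-205 1 with no filter or all 24 arrays. With probe sets averaged it was 3 in total RNA after miR-203, where MAPK3 passed (limma adjusted p = 0.040). For the difference of changes after miR-130a it became 2 with centred arrays or a replicate block. With single arrays left out the counts ranged from 1 to 2 (AGO2-bound, miR-130a), 1 to 2 (AGO2-bound, miR-203), 0 to 2 (total, miR-130a), 0 to 3 (total, miR-203) and 1 to 2 (total, miR-205). With trend and robust eBayes settings the MAPK3 difference of changes after miR-203 and the ARAF rise in total RNA after miR-205 lost their calls (limma adjusted p = 0.053 and 0.068), and MAP2K2 in total RNA after miR-205 gained one (0.030). MAPK3 in AGO2-bound against total RNA after miR-203 passed with no filter (limma adjusted p = 0.034) and with probe sets averaged (0.037).

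Where the pairing was not borne out, the replicate block gave limma adjusted p of 0.058 for HRAS in total RNA after miR-203, 0.065 for ARAF and 0.060 for MAP2K1 in total RNA after miR-205, 0.040 for MAP2K2 in total RNA after miR-205, 0.043 for the MAP2K1 difference of changes after miR-130a and 0.13 for MAP2K1 in AGO2-bound against total RNA after scramble; it changed no other call of the 5 genes beyond those printed beside their results.

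Signs changed only in values that did not pass the test, with the exception of PPP2R5C, a phosphatase subunit, which was called lower after miR-130a in AGO2-bound RNA and in the difference of changes and read 0.092 and 0.067 with probe sets averaged. MAP2K2 in AGO2-bound RNA read 0.14 (miR-130a) and 0.19 (miR-203) by its other probe set. In total RNA MAPK3 after miR-130a read -0.0031 under quantile normalization and -0.0016 with centred arrays, and MAP2K1 after miR-203 read -0.0021 under quantile normalization. The MAPK3 difference of changes after miR-130a read 0.0048 and 0.023 under these, and its AGO2-bound against total RNA value after miR-205 read -0.091 with centred arrays. With single arrays left out, values crossing zero ranged in AGO2-bound RNA after miR-130a from -0.073 to 0.053 (HRAS), -0.35 to 0.040 (MAP2K2) and -0.0082 to 0.048 (MAPK3), and after miR-205 from -0.25 to 0.18 (MAP2K2). In total RNA they ranged from -0.0081 to 0.094 (MAPK3, miR-130a), -0.067 to 0.051 (MAP2K1, miR-203) and -0.17 to 0.15 (MAP2K2, miR-203). The MAPK3 difference of changes after miR-130a ranged from -0.067 to 0.035, and MAP2K1 in AGO2-bound against total RNA after miR-130a from -0.043 to 0.16.

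Over all genes, the calls in total RNA went from 1984 to 1203 after miR-130a and from 1591 to 980 after miR-205 with all 24 arrays in the fit. The share of higher calls in total RNA after miR-130a was 54.5%, 44.2% under quantile normalization and 41.8% with centred arrays. Centring moved the median of AGO2-bound against total RNA to -0.18 after miR-205 and after scramble. The causes were not tested. Signal over background limits the dim probe sets. The 5 genes all lay above the lowest value of the arrays, which does not measure the background of each probe set. That background was not tested, and some MAPK3 values were identical between arrays.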
